A study of Mus musculus with 18 samples.

Results

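Unstressed SSBP1 knockdown cells were set directly against unstressed HSF1 knockdown cells, array against array. The comparison used the 3 SSBP1-KD Cont and the 3 HSF1-KD Cont arrays, 6 of the 18 arrays of the series, which hold 3 arrays for each of 6 groups. All cells were immortalized mouse embryonic fibroblasts (MEF cells) of ICR background. Both compared groups were infected for 2 h with an adenovirus that expresses a short hairpin RNA, Ad-sh-mSSBP1-KD1 against SSBP1 or Ad-sh-mHSF1-KD2 against HSF1, were held in normal medium for 70 h and stayed at 37 °C (Cont). The remaining groups were scrambled RNA-treated cells (SCR), which carried the same kind of virus with a scrambled hairpin, and the 3 kinds of cell after 1 h of heat shock at 42 °C (HS). Since virus, hairpin expression and culture time were shared, the comparison asks how the target of the knockdown changes the mRNA levels of cells that were not stressed. Only 1 hairpin per target was on the arrays, so that an effect of the lost target and an effect of the hairpin on other mRNAs cannot be told apart. Cells were not sorted, and in such bulk samples fewer cells of a type and less RNA per cell cannot be told apart.

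HSF1 is the transcription factor that binds heat shock elements and drives the genes of the heat shock proteins, the chaperones that fold, refold and disaggregate proteins. It is held mostly inactive without stress, and still sets part of the basal level of some chaperone genes. SSBP1 is a nuclear-encoded single-stranded DNA-binding protein of the mitochondrial matrix that coats mitochondrial DNA during replication.

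The Ssbp1 mRNA, the target in one of the groups, was at a log2 signal of 9.02, 9.25 and 9.32 in the SSBP1-KD arrays, 9.62, 9.55 and 9.49 in the HSF1-KD arrays and 9.54, 9.36 and 9.36 in the SCR arrays. All 3 SSBP1-KD arrays lay below all arrays of the other groups, by a small step on this platform. The difference from HSF1-KD was -0.35 ± 0.08 (log2 difference ± SE, n = 3 arrays per group, adjusted p = 0.00437 by limma with Benjamini-Hochberg adjustment), the difference from SCR was -0.22 with an adjusted p of 0.0555, and the call against HSF1-KD was lost in a fit of the 6 arrays alone. No probe set with a single symbol named Hsf1, so that the HSF1 knockdown itself was not analysed here.

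Array medians ran from 7.88 to 7.94 over the series. SSBP1-KD Cont replicate 1 stood apart, with a mean absolute residual of 0.152 against 0.07 to 0.11 on the other 17 arrays, and counts of list members are therefore also given without it where a count then differs by more than 1. Nothing in the labels says that replicates came from separate cultures, and each p-value therefore reflects variation among the arrays at hand, some of which could be technical. Of 15 fibroblast markers 2 (13.3%) were higher and 7 (46.7%) lower in SSBP1-KD, against 12.9% and 16.6% of all genes. Their list medians were 10.38 to 10.51 in the HSF1-KD arrays and 10.38 to 10.48 in the SSBP1-KD arrays, with summed linear signals of 39200 to 40300 and 35300 to 37300. Of 5 neural or glial markers 4 were higher, among them Nes by 0.30, with summed signals of 3050 to 3080 in HSF1-KD and 3620 to 3980 in SSBP1-KD, and of 5 chondrocyte markers 1 was higher, Sox9 by 0.75. Of the leukocyte (7), endothelial (8), epithelial (8), muscle (6) and adipocyte (4) markers, 0 to 2 per list passed the test in either direction. Signals of probes have no true zero, so that no marker can be called absent, and the part of these differences in the results was not tested.

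A broad set of genes differed between the knockdowns, and most differences were small. Most measured interferon-stimulated genes, cholesterol and fatty acid synthesis genes, chaperones of the endoplasmic reticulum (ER), lysosomal genes and complement genes were lower in SSBP1-KD than in HSF1-KD cells. Among cytoplasmic and mitochondrial chaperones, TGF-beta and contractile genes, immediate-early genes, MAP kinase phosphatases and antioxidant genes, more members passed the test as higher than as lower, and 46.2% to 51.6% of each list passed as higher. Of 19936 genes, each read from its brightest probe set, 2563 (12.9%) were higher and 3305 (16.6%) were lower at an adjusted p under 0.05. Values are log2 signals, so that a difference of 1 is a 2-fold change, and the median difference over all genes was 0.02. Of all genes 25% lay below -0.11 and 75% below 0.12, while 1% lay below -0.72 and 99% below 0.55. Past a fold of 1.5 with an adjusted p under 0.05 were 160 genes higher and 413 lower, past a fold of 2 were 18 and 55, and past a fold of 3 were 2 and 6. With the cutoffs used by the authors (more than 1.5-fold, p under 0.05 without adjustment) 162 genes (0.813%) were higher and 413 (2.07%) lower. A fit of the 6 arrays alone called fewer genes, 1145 higher and 1855 lower.

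Each knockdown was also set against SCR to see on which side a gene differed. Against SCR, 2919 genes (14.6%) were higher and 3288 (16.5%) lower in SSBP1-KD, and 2178 (10.9%) were higher and 2014 (10.1%) lower in HSF1-KD. These 2 comparisons share the SCR arrays and each shares arrays with the direct comparison, so their values are given side by side only. Of the 2563 genes higher in SSBP1-KD than in HSF1-KD, 1280 were above SCR in SSBP1-KD only, 652 were below SCR in HSF1-KD only, 171 were both and 460 were neither. Of the 3305 lower genes the same counts, with the directions turned, were 1723, 737, 389 and 456.

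**Figure D1:**
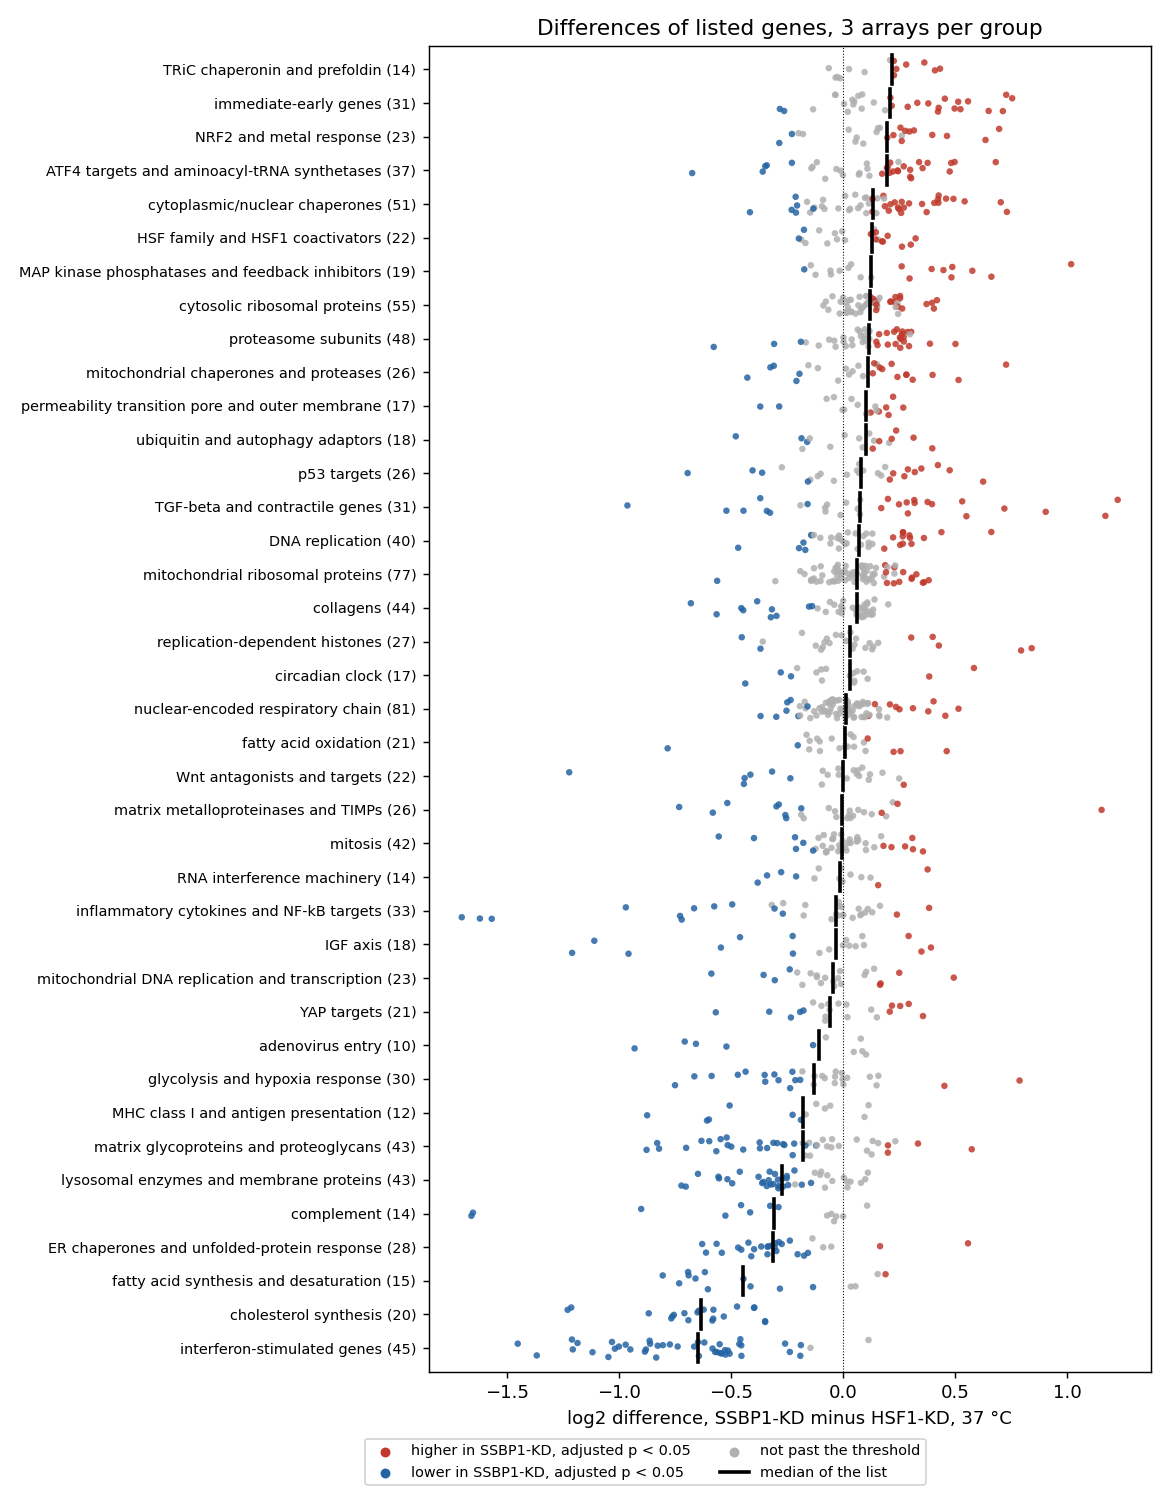
Log2 difference of SSBP1-KD minus HSF1-KD at 37 °C for each measured gene of every list with more than 1 measured gene, marker lists of other cell types left out (number of genes in brackets), 3 arrays per group, with red points higher, blue points lower and grey points not past an adjusted p of 0.05, and a black bar at each list median. List medians run from -0.65 for interferon-stimulated genes to 0.22 for the TRiC chaperonin.

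Interferon-stimulated genes, which cells switch on against viruses, formed the list with the lowest median. Of 45 measured genes 43 were lower in SSBP1-KD than in HSF1-KD and 0 were higher, with a list median of -0.65 against 0.02 for all genes. Mx2, an interferon-induced GTPase, was at 8.83, 8.79 and 8.74 in the HSF1-KD arrays and 7.19, 7.40 and 7.41 in the SSBP1-KD arrays. The groups were far apart relative to their spread, with SCR in between at 8.28 to 8.40, and the difference was -1.45 ± 0.08 (adjusted p = 2.95e-08), or 2.74-fold. Oas2, an oligoadenylate synthetase that senses double-stranded RNA, was at 9.97, 9.85 and 9.93 in HSF1-KD and 8.50, 8.57 and 8.58 in SSBP1-KD (-1.37 ± 0.08, adjusted p = 3.08e-08). Rsad2, which encodes the antiviral enzyme viperin, was at 11.43, 11.47 and 11.39 in HSF1-KD against 10.19, 10.38 and 10.09 in SSBP1-KD (-1.21 ± 0.07, adjusted p = 3.11e-08). In none of these genes did an array of one knockdown reach the range of the other. Of all 19936 genes, 3633 were higher and 4137 lower in SSBP1-KD without overlap. For genes named for the largest differences, non-overlap was a condition of the choice. Irf7, the transcription factor that amplifies interferon responses, differed by -1.21, the guanylate-binding protein gene Gbp3 by -1.19 and Usp18, which removes the ISG15 tag from proteins, by -1.12. Cxcl10, a chemokine that draws T cells, was at 12.50, 12.52 and 12.58 in HSF1-KD and at 11.46, 11.58 and 11.55 in SSBP1-KD, again without overlap (adjusted p = 4.2e-07). Both knockdowns had moved from SCR, in opposite directions: 38 of the 45 genes were below SCR in SSBP1-KD, with a median of -0.36, and 32 were above SCR in HSF1-KD, with a median of 0.31. Oas2 was 0.95 above SCR in HSF1-KD and 0.41 below it in SSBP1-KD, whereas Irf7 was 0.31 above and 0.89 below. Without SSBP1-KD replicate 1 the count was again 43 lower and 0 higher.

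Promoters of this list are shown because most of its genes were lower and many hold the same short sequence. Among the 35 measured members that have a RefSeq promoter (250 bases before to 50 after the start, GRCm38.p6), 17 (48.6%) held the letters GAAANNGAAA of an interferon-stimulated response element on either strand, against 3.44% of all 32851 promoters. All 17 were lower in SSBP1-KD, which adds little to the 43 of 45 lower members of the whole list. Their median difference was -0.77, and that of the members without the letters was -0.53, a gap that was not tested. The following stretches hold the matches in capitals, 5′ to 3′ on the strand of the gene. A match describes letters only and is not evidence of a bound site.
Rsad2 (chr12:26456518-26456617, minus strand): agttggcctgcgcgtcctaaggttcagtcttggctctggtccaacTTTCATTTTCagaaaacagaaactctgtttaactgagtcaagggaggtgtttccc
Ifit1 (chr19:34640749-34640848, plus strand): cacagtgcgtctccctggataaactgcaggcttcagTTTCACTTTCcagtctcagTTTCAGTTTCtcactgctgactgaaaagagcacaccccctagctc
Cxcl10 (chr5:92349040-92349139, minus strand): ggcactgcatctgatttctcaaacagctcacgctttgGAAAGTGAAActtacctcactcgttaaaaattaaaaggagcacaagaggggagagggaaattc
Gbp3 (chr3:142559957-142560056, plus strand): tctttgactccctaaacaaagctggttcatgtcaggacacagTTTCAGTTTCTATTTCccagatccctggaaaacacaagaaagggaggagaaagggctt
Oas1a (chr5:120907488-120907587, minus strand): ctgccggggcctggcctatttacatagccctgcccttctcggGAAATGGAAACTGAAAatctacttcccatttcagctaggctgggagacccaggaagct
Rsad2 and Cxcl10 held 1 match each, which end 111 and 204 bases before the start, while Ifit1, Gbp3 and Oas1a held 2 each, and those of Gbp3 and Oas1a overlap. Oas1a belongs to a family of close copies, whose probes may share signal.

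Genes of antigen presentation and of inflammation were in part lower as well. Of 12 MHC class I and antigen presentation genes 6 were lower and 0 higher, among them the peptide-loading factor Tapbp by -0.60 and the peptide transporter subunit Tap1 by -0.51. Tap1, Psmb8 and Psmb9 also belong to the list of interferon-stimulated genes above, so that the counts of these lists overlap. Of 33 inflammatory cytokine and NF-kB target genes 11 were lower and 2 higher, and the list median was -0.03. Lcn2, which encodes the siderophore-binding lipocalin 2, was at 12.15, 12.06 and 12.16 in HSF1-KD and 10.68, 10.62 and 10.37 in SSBP1-KD. No SSBP1-KD array came near the HSF1-KD arrays, and the difference was -1.57 ± 0.10 (adjusted p = 7.24e-08). Cxcl5, a neutrophil chemokine, differed by -1.70, the acute phase gene Saa3 by -1.62 and the nitric oxide synthase gene Nos2 by -1.22. Cxcl5 was 1.82 below SCR in SSBP1-KD and -0.12 from it in HSF1-KD (adjusted p = 0.377). The chemokine gene Ccl17 stood on the other side, with 1.19 above SCR in HSF1-KD and -0.11 in SSBP1-KD (adjusted p = 0.384), and differed by -1.30. Ptgs2, which encodes the prostaglandin synthase COX-2, was 1 of the 2 higher members: it was 0.38 higher in SSBP1-KD than in HSF1-KD, and was above SCR in both, by 1.39 and 1.01.

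Of 14 complement genes 8 were lower and 0 higher. Serping1, which encodes the inhibitor of the first complement component, was at 9.39, 9.31 and 9.43 in HSF1-KD and 7.66, 7.77 and 7.74 in SSBP1-KD, a gap many times wider than the spread of either group. It differed by -1.65 ± 0.13 (adjusted p = 6.23e-07), and the protease gene C1s1 differed by -1.66 ± 0.19 (adjusted p = 1.11e-05). Both were low against SCR in SSBP1-KD only, with -1.80 for Serping1 and -2.02 for C1s1, whereas HSF1-KD gave -0.14 and -0.36 with adjusted p of 0.539 and 0.223. Clu, a secreted chaperone that also restrains complement, differed by -0.90. Among 10 genes of adenovirus entry 5 were lower and 0 higher, namely the receptor gene Cxadr by -0.66 and the integrin genes Itgav by -0.71, Itgb3 by -0.93 and Itgb5 by -0.52, together with the integrin gene Itgb1 at -0.13. The call of Itgb1 was lost when any array but SSBP1-KD replicate 1 was left out, with adjusted p of 0.0548 to 0.167. It was also lost in a fit of the 6 arrays alone (adjusted p = 0.231). All cells had been infected 70 h earlier, the amount of virus per cell was not measured on the arrays, and its part in the results was not tested.

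Sterol synthesis genes were lower in SSBP1-KD along the pathway. All 20 measured cholesterol synthesis genes were lower than in HSF1-KD, with a median of -0.63, and without SSBP1-KD replicate 1 all 20 were lower again. Dhcr7, the reductase of the last step, was at 10.80, 10.73 and 10.83 in HSF1-KD and 9.61, 9.50 and 9.56 in SSBP1-KD. SCR lay between them at 10.30 to 10.37, no array overlapped, and the difference was -1.23 ± 0.06 (adjusted p = 5.33e-09), or 2.35-fold. Cyp51, the lanosterol demethylase, was at 11.94, 11.96 and 11.93 against 10.65, 10.71 and 10.83 (-1.21 ± 0.06, adjusted p = 9.07e-09). Msmo1 differed by -0.87, the cyclase gene Lss by -0.77, Nsdhl and the prenyl synthase gene Fdps by -0.76 each and the epoxidase gene Sqle by -0.64. Srebf2, whose product is the main activator of these genes, was at 12.44, 12.46 and 12.45 in HSF1-KD and 11.80, 11.73 and 11.70 in SSBP1-KD, a difference of -0.71 ± 0.04 (adjusted p = 3.08e-08). As with the interferon genes, both knockdowns lay away from SCR: 18 of the 20 genes were below SCR in SSBP1-KD, with a median of -0.39, and 14 were above SCR in HSF1-KD, with a median of 0.27.

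Of 15 fatty acid synthesis and desaturation genes 11 were lower and 1 higher, with a median of -0.44. Srebf1, the activator of lipogenic genes, differed by -0.73, the elongase gene Elovl6 by -0.81, and the desaturase genes Scd1, Scd2, Fads1 and Fads2 by -0.62, -0.66, -0.69 and -0.60. Fads1 and Fads2 lay within 0.03 of SCR in HSF1-KD and 0.72 and 0.60 below it in SSBP1-KD, whereas Srebf1 was 0.30 above SCR in HSF1-KD and 0.43 below it in SSBP1-KD. Acaca, the acetyl-CoA carboxylase that makes malonyl-CoA, differed by -0.41.

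Secretory pathway genes were lower by smaller amounts. Of 28 ER chaperone and unfolded-protein response genes 23 were lower and 2 higher, with a median of -0.31. Pdia6, a protein disulphide isomerase, was at 11.45, 11.44 and 11.45 in HSF1-KD and 10.90, 10.86 and 10.74 in SSBP1-KD (-0.61 ± 0.05, adjusted p = 4.24e-07). Its groups did not overlap, and SCR lay at 11.04 to 11.13. Creld2 differed by -0.63, the ER co-chaperone gene Dnajc3 by -0.56, Selenos by -0.54, the mannosidase-like Edem1 by -0.47 and the ER chaperone gene Hyou1 by -0.45. Dnajb9, the ER co-chaperone that represses the sensor IRE1, went the other way by 0.56. Here 15 of the 28 genes were below SCR in SSBP1-KD and 15 were above SCR in HSF1-KD. Of 43 lysosomal genes 29 were lower and 0 higher, with a median of -0.27, among them Manba (-0.72), the acid lipase gene Lipa (-0.70), Cln3 (-0.56), the cathepsin gene Ctsz (-0.55) and the legumain gene Lgmn (-0.52).

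Some matrix and growth factor genes showed a different order of the 3 kinds of cell. Of 43 matrix glycoprotein and proteoglycan genes 23 were lower in SSBP1-KD than in HSF1-KD and 4 were higher (2 without SSBP1-KD replicate 1), and 27 were below SCR in SSBP1-KD against 13 in HSF1-KD. Igf2, a fetal growth factor, was at 10.14, 10.05 and 10.29 in HSF1-KD and 9.01, 9.02 and 9.13 in SSBP1-KD, with SCR at 10.85, 10.88 and 11.17. SCR was thus highest, HSF1-KD lower and SSBP1-KD lowest, with no overlap, and the knockdowns differed by -1.11 ± 0.12 (adjusted p = 6.04e-06). The IGF-binding protein gene Igfbp2 (-1.21), the Wnt antagonist gene Sfrp2 (-1.22), the collagen crosslinking enzyme gene Lox (-0.70) and the leucine-rich proteoglycan gene Ogn (-0.82) had the same order, each below SCR in both knockdowns and further below in SSBP1-KD. Efemp1, a fibulin, differed by -0.83. Of 44 collagens 10 (22.7%) were lower and 0 higher, against 16.6% lower over all genes, and the collagen list median was 0.06. Among the lower ones were Col6a2 at -0.68, Col6a1 at -0.56, and Col1a1 and Col1a2 at -0.32 each. Fbln5, an elastic fibre protein, was 0.57 higher, and of 26 matrix metalloproteinase and TIMP genes 8 were lower and 3 higher, among the latter the collagenase gene Mmp13 by 1.16. Of the IGF list (18 genes) 7 were lower and 3 higher. Glycolysis and hypoxia genes (30 measured) held 13 lower and 2 higher members, with the glucose transporter gene Slc2a1 at -0.59, the lactate transporter gene Slc16a3 at -0.66 and Ndrg1 at 0.79.

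**Figure D2:**
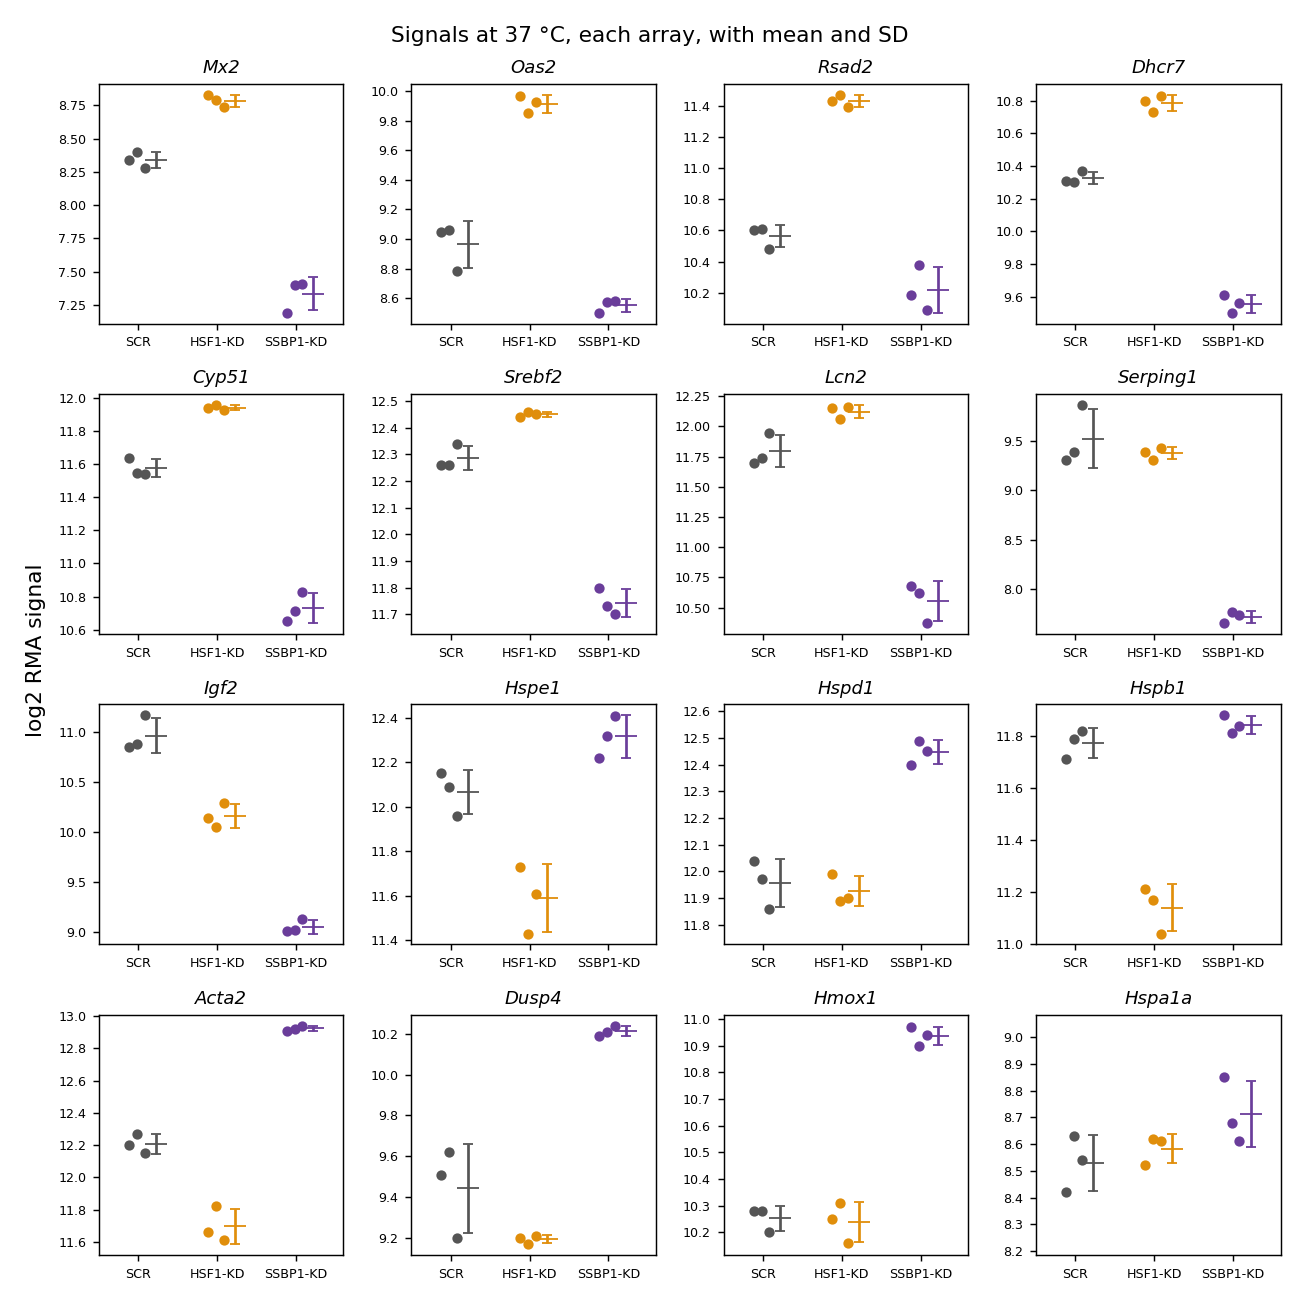
Log2 RMA signal of 16 genes at 37 °C, each point 1 array, 3 arrays per group, with a line at the mean and bars of 1 SD. Mx2 lies at 8.74 to 8.83 in HSF1-KD and 7.19 to 7.41 in SSBP1-KD, Hspe1 at 11.43 to 11.73 and 12.22 to 12.41, and Hspa1a overlaps between the groups.

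Among cytoplasmic and mitochondrial chaperones, which include the classical products of HSF1 target genes, more genes were higher than lower in SSBP1-KD relative to HSF1-KD cells without any heat. Of 51 cytoplasmic/nuclear chaperone genes 24 were higher and 6 lower, with a median of 0.13 against 0.02 for all genes, and 25 were higher and 4 lower without SSBP1-KD replicate 1. Hspb1, the small heat shock protein HSP25, was at 11.21, 11.17 and 11.04 in HSF1-KD and 11.88, 11.81 and 11.84 in SSBP1-KD. Its SSBP1-KD arrays reached the level of SCR (11.71 to 11.82) and its HSF1-KD arrays lay below, so that the difference of 0.70 ± 0.07 (adjusted p = 2.31e-06) stood against -0.63 for HSF1-KD and 0.07 for SSBP1-KD relative to SCR. Hspb8, a small heat shock protein of chaperone-assisted autophagy, was at 9.65, 9.46 and 9.45 against 10.26, 10.25 and 10.25 (0.73 ± 0.06, adjusted p = 1.34e-06), and lay 0.53 above SCR in SSBP1-KD. Hsph1, the nucleotide exchange factor HSP110, was 0.54 higher, the HSP40 genes Dnaja4, Dnaja1 and Dnajb4 were 0.49, 0.43 and 0.42 higher and the HSP90 co-chaperone gene Ptges3 was 0.46 higher. Hsp90aa1, the inducible HSP90, differed by 0.19, a call lost in a fit of the 6 arrays alone (adjusted p = 0.088). The stress-inducible HSP70 gene Hspa1a was at 8.52, 8.62 and 8.61 in HSF1-KD and 8.85, 8.68 and 8.61 in SSBP1-KD, which overlap, with a difference of 0.13 (adjusted p = 0.183), and the HSP40 gene Dnajb1 differed by 0.18 (adjusted p = 0.0817). Dnajb14, an ER membrane HSP40, was 0.42 lower. Against SCR, 21 of the 51 genes were higher and 6 lower in SSBP1-KD, and 5 were higher and 13 lower in HSF1-KD. Of 14 TRiC chaperonin and prefoldin genes, whose products fold actin and tubulin, 7 were higher and 0 lower, led by Cct4 (0.43), Cct5 (0.41) and Cct3 (0.36).

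The matrix chaperonin pair had the largest differences among 26 mitochondrial chaperones and proteases, of which 12 were higher and 5 lower (10 and 4 without SSBP1-KD replicate 1). Hspe1, which encodes HSP10, was at 11.73, 11.43 and 11.61 in HSF1-KD and 12.22, 12.32 and 12.41 in SSBP1-KD. SCR lay between them at 11.96 to 12.15, and the difference was 0.73 ± 0.07 (adjusted p = 4.83e-06), or 1.66-fold. Hspd1, which encodes HSP60, was at 11.99, 11.89 and 11.90 against 12.40, 12.49 and 12.45 (0.52 ± 0.05, adjusted p = 2.64e-06). The 2 genes differed in their position to SCR: Hspd1 was 0.49 above it in SSBP1-KD and -0.02 from it in HSF1-KD (adjusted p = 0.802), whereas Hspe1 was 0.25 above and 0.48 below. Hspa9, the mitochondrial HSP70, was 0.40 higher and the matrix protease gene Lonp1 0.28 higher. The inner membrane protease gene Spg7 was 0.43 lower and the peptidase gene Mipep 0.32 lower.

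Promoter stretches of 3 of these genes are shown because HSF1 acts through heat shock elements. The letters GAANNTTCNNGAA occurred on either strand in 0.603% of the 32851 promoters and in 2 of 21 mitochondrial chaperone promoters (9.52%), those of Hspd1 and Hspe1, and in 3 of 42 cytoplasmic/nuclear chaperone promoters (7.14%). The shorter letters GAANNTTC, which form the first part of that element and so occur in every match of it, were in 7.86% of all promoters and in 12 of the 42 (28.6%), of which 8 were higher in SSBP1-KD and 1 lower. Capitals mark the matches.
Hspe1 (chr1:55088018-55088117, plus strand): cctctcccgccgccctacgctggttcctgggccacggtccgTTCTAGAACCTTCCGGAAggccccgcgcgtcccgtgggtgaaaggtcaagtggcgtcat
Hsph1 (chr5:149636287-149636386, minus strand): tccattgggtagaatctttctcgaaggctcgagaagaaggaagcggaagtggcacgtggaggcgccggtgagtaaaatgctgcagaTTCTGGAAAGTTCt
Hspb1 (chr5:135887766-135887865, plus strand): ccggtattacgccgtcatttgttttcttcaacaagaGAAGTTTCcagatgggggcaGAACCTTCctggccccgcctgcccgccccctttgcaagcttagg
Hspd1 and Hspe1 are read from opposite strands of the same stretch, so that the 2 overlapping matches lie from 89 to 72 bases before the Hspe1 start and from 144 to 127 bases before the Hspd1 start. The Hsph1 match lies 36 to 48 bases after the start, and Hspb1 held 2 matches of the shorter letters and none of the longer.

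Among coactivators and other partners of HSF1, 10 of 22 genes were higher and 2 lower. Smarca4, which encodes the chromatin remodelling ATPase BRG1, was at 11.33, 11.43 and 11.36 in HSF1-KD and 11.73, 11.67 and 11.69 in SSBP1-KD (0.32 ± 0.04, adjusted p = 3.58e-05), and did not overlap. The remodelling subunit gene Smarce1 was 0.30 higher and the acetyltransferase gene Ep300 0.20 higher, the latter with an adjusted p of 0.077 in a fit of the 6 arrays alone. Of 23 genes of mitochondrial DNA replication and transcription, the process in which SSBP1 works, 4 (17.4%) were higher and 4 lower, near the shares over all genes, with Ssbp1 among the latter. Dna2, a nuclease and helicase of nuclei and mitochondria, was 0.59 lower, with 0.57 above SCR in HSF1-KD and -0.01 in SSBP1-KD (adjusted p = 0.851). Tfb2m, a mitochondrial transcription factor, was 0.49 higher and the mitochondrial RNA polymerase gene Polrmt 0.30 lower. Tfam, which packages mitochondrial DNA, was at 9.22, 9.03 and 9.14 against 8.55, 9.04 and 9.20, with SSBP1-KD replicate 1 alone far below and an adjusted p of 0.274. Nuclear-encoded respiratory chain genes held 10 higher and 7 lower of 81, with the complex I gene Ndufa10 at 0.52, and mitochondrial ribosomal protein genes 13 higher and 1 lower of 77, the last being Mrps6 at -0.56 (19 and 2 without SSBP1-KD replicate 1). The higher shares, 12.3% and 16.9%, are near the 12.9% over all genes. The lower shares, 8.64% and 1.3%, are under the 16.6% over all genes. Of 17 permeability transition pore and outer membrane genes 6 were higher and 2 lower. The channel gene Vdac2 was 0.20 higher and Vdac1 0.16 higher. Both calls were lost in a fit of the 6 arrays alone, with adjusted p of 0.115 for Vdac2 and 0.164 for Vdac1. The call of Vdac1 was also lost when HSF1-KD replicate 2 or 3 or SSBP1-KD replicate 2 or 3 was left out, with adjusted p of 0.0671 to 0.0902. The survival genes Mcl1 and Bcl2l1 went in opposite directions, with 0.27 and -0.37.

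Genes of the contractile apparatus were among those most raised in SSBP1-KD relative to HSF1-KD. Acta2, smooth muscle actin, was at 11.66, 11.82 and 11.61 in HSF1-KD and 12.91, 12.92 and 12.94 in SSBP1-KD. SCR lay between them at 12.15 to 12.27, and the difference was 1.23 ± 0.06 (adjusted p = 8.81e-09), or 2.34-fold. Tagln, an actin-binding protein of smooth muscle, was at 9.02, 8.99 and 8.84 against 9.91, 9.85 and 9.81 (0.91 ± 0.07, adjusted p = 3.2e-07). Actg2 differed by 1.17, the myosin light chain gene Myl9 by 0.72, the calponin gene Cnn1 by 0.55, the tropomyosin gene Tpm2 by 0.53 and Srf, the factor that binds CArG boxes, by 0.50. Of the 31 TGF-beta and contractile genes, however, 15 were higher and 7 lower, and the receptor gene Tgfbr1 was among the lower at -0.96, with 0.49 above SCR in HSF1-KD and 0.47 below it in SSBP1-KD. Of 23 members with a promoter 4 held a CArG box (17.4%, against 1.63% of all promoters), namely Cnn2, Lmcd1, Myl9 and Vcl. All 4 were higher, although the call of Lmcd1 was lost without HSF1-KD replicate 2 (0.22, adjusted p = 0.0634). Only the exact letters CC, 6 of A or T, and GG were counted as a CArG box, so a looser form would be missed. For Acta2, Actg2, Tagln, Cnn1 and Tpm2 no such match was found, either because the window held none or because the gene had no promoter entry. The Myl9 match, in capitals, shows that element 161 to 152 bases before the start.
Myl9 (chr2:156775258-156775357, plus strand): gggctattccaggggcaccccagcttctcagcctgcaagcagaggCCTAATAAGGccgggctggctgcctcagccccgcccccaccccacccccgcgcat
Of 6 other muscle markers 1 was higher and 0 were lower, with summed signals of 1390 to 1470 in HSF1-KD and 1470 to 1710 in SSBP1-KD.

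Among immediate-early genes and the feedback inhibitors of MAP kinase signalling, higher calls outnumbered lower ones. Of 31 immediate-early genes 16 were higher and 2 lower, with a median of 0.21, and of 19 MAP kinase phosphatase and feedback inhibitor genes 9 were higher and 1 lower. Dusp4, a nuclear MAP kinase phosphatase, was at 9.20, 9.17 and 9.21 in HSF1-KD and 10.19, 10.21 and 10.24 in SSBP1-KD. Both groups were tight and SCR was wide, at 9.20 to 9.62, and the difference was 1.02 ± 0.09 (adjusted p = 1.34e-06). The growth regulator gene Myc was at 10.88, 10.91 and 10.75 against 11.58, 11.49 and 11.62 (0.71 ± 0.07, adjusted p = 5.58e-06). Klf4, Fosl1, Klf6 and the nuclear receptor gene Nr4a2 differed by 0.76, 0.73, 0.65 and 0.56, and the inhibitors Dusp1, Spry2, Dusp10 and Dusp7 by 0.66, 0.58, 0.49 and 0.45. Against SCR, 12 of the 19 phosphatase and inhibitor genes were higher and 1 lower in SSBP1-KD, and 5 were higher and 2 lower in HSF1-KD. Of the immediate-early genes 16 were higher and 3 lower than SCR in SSBP1-KD, and 5 were higher and 9 lower in HSF1-KD. Dusp1 was 0.74 above SCR there and 0.07 in HSF1-KD (adjusted p = 0.456).

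Higher calls also outnumbered lower ones in stress genes outside the heat shock family. Of 23 NRF2 and metal response genes 11 were higher and 2 lower, with a median of 0.20. Hmox1, the haem-degrading oxygenase, was at 10.25, 10.31 and 10.16 in HSF1-KD and 10.97, 10.90 and 10.94 in SSBP1-KD, while SCR lay with HSF1-KD at 10.20 to 10.28. The difference was 0.70 ± 0.06 (adjusted p = 7.32e-07). Gclm and Gclc, the subunits of the ligase that starts glutathione synthesis, differed by 0.64 and 0.46, and the autophagy adaptor gene Sqstm1 by 0.40. Of 37 ATF4 targets and aminoacyl-tRNA synthetases 19 were higher and 5 lower. Wars, the tryptophanyl-tRNA synthetase, was 0.68 higher than in HSF1-KD and -0.01 from SCR (adjusted p = 0.933), with HSF1-KD 0.69 below SCR. Tars was 0.48 higher and the amino acid transporter genes Slc7a5 and Slc7a3 were 0.50 higher and 0.67 lower.

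Of 48 proteasome genes 20 were higher and 3 lower (18 and 3 without SSBP1-KD replicate 1), with Psma2 at 0.50 and Psmd5 at 0.39, and the lower ones included Psme1 (-0.58) and Psme2 (-0.31), which encode the interferon-inducible activator of the proteasome. The call of Psme2 was lost in a fit of the 6 arrays alone (adjusted p = 0.0592). Cytosolic ribosomal protein genes held 18 higher and 0 lower of 55, led by Rps20 at 0.42, and many of them have close copies elsewhere in the genome that can share probes. Of 40 DNA replication genes 13 were higher and 5 lower, among them the cyclin gene Ccne1 at 0.66, the sliding clamp gene Pcna at 0.44 and the helicase gene Mcm5 at 0.36, whereas Gins4 was -0.47. Of 42 mitosis genes 6 were higher and 6 lower (8 and 5 without SSBP1-KD replicate 1). These shares, 14.3% each, are near the 12.9% higher and 16.6% lower over all genes. Of 26 p53 target genes 9 were higher and 4 lower, with Plk2 at 0.63 and Ei24 at -0.69.

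The largest differences fell into genes changed on the HSF1-KD side, on the SSBP1-KD side and on both. Gpm6a, a membrane glycoprotein best known from neurons, was at 10.06, 10.21 and 10.10 in HSF1-KD and 8.17, 7.91 and 7.81 in SSBP1-KD, with SCR at 10.62 to 10.90. It had the largest difference of the genes named here (-2.16 ± 0.13, adjusted p = 3.99e-08), or 4.47-fold. Lipg, the endothelial lipase, was at 9.33, 9.38 and 9.19 against 7.59, 7.63 and 7.52 (-1.72 ± 0.07, adjusted p = 4.16e-09), and here HSF1-KD was the outlying group, 1.42 above SCR, with SSBP1-KD 0.30 below. In the other direction Serpinb9b, a granzyme inhibitor, was at 9.35, 9.34 and 9.04 against 10.99, 10.98 and 11.06 (1.77 ± 0.11, adjusted p = 6.25e-08), 0.76 below SCR in HSF1-KD and 1.01 above it in SSBP1-KD. A run of genes was lower than SCR in HSF1-KD and lay nearer to SCR in SSBP1-KD. Eif4ebp2, a repressor of cap-dependent translation, differed by 1.04, with 0.98 below SCR in HSF1-KD and 0.05 from it in SSBP1-KD (adjusted p = 0.636). The ubiquitin-like Nedd8 differed by 1.08, with 0.89 below SCR and 0.19 above (adjusted p = 0.0556). Ubn1, a histone chaperone subunit, Uck2, a uridine-cytidine kinase, and Kmt5a, a histone methyltransferase, were 2.47-, 2.29- and 2.17-fold higher and lay 0.97, 1.01 and 0.78 below SCR in HSF1-KD. Another run was high in SSBP1-KD and near SCR in HSF1-KD, such as the T cell costimulatory ligand gene Tnfsf18 (1.13, with 1.35 and 0.22 against SCR), Mmp13 (1.21 and 0.05 against SCR) and the angiogenin-family gene Ang2 (1.34 and 0.13). Lce1g and Lce1h, cornified envelope genes, differed by 1.72 and 1.19. Lce1g, Lce1h, Ang2 and Serpinb9b belong to clusters of close copies, so that the copy behind the signal is uncertain.

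**Figure D3:**
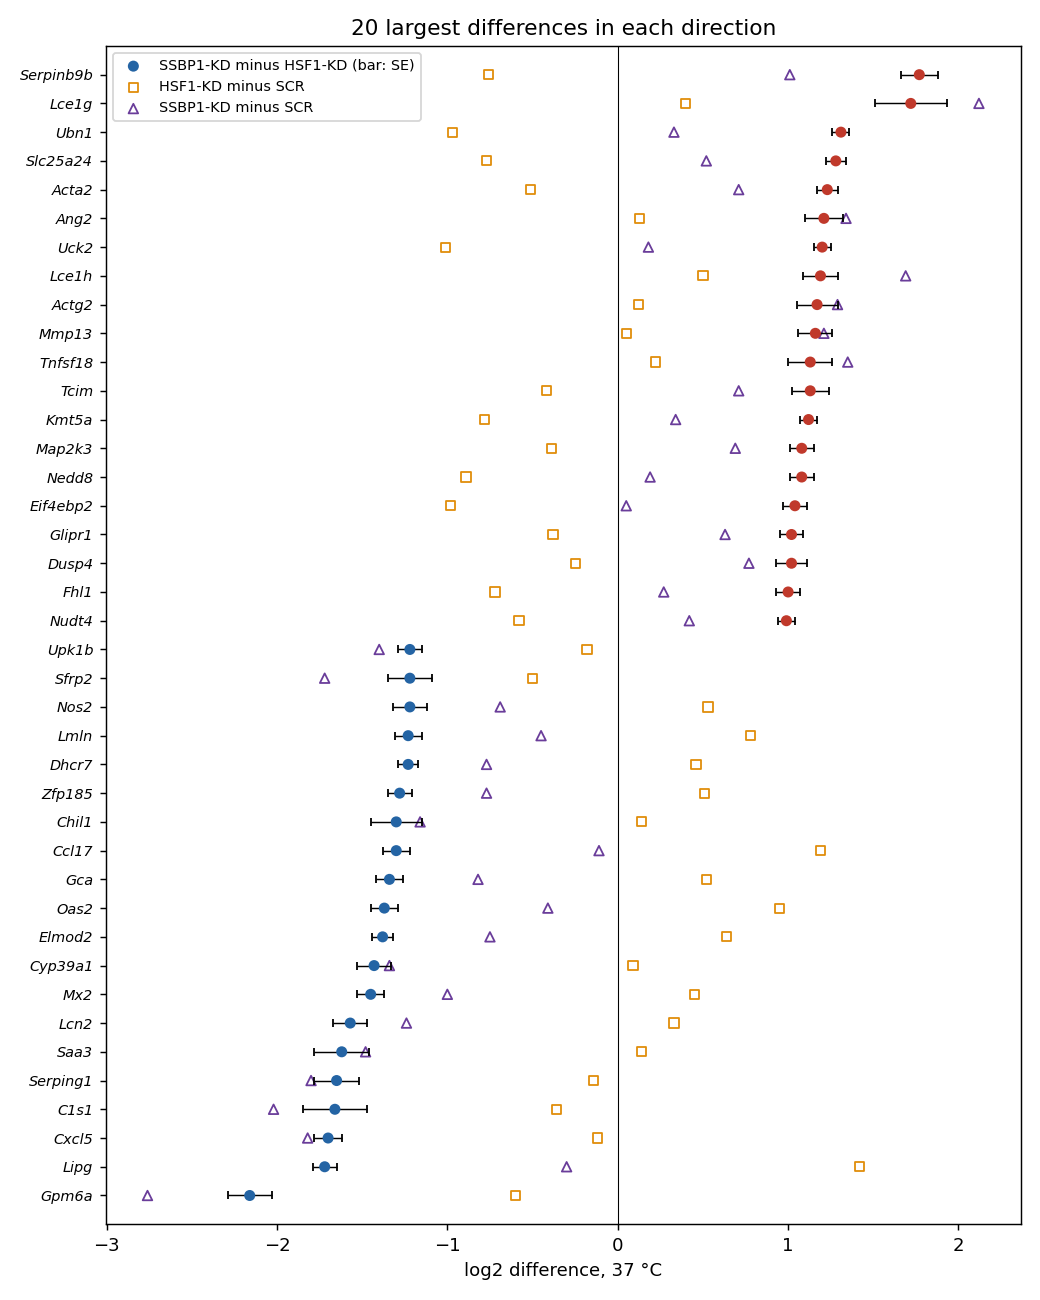
The 20 largest log2 differences in each direction at 37 °C among called genes without overlap of the groups and without a predicted symbol. Filled circles show SSBP1-KD minus HSF1-KD (red higher, blue lower, bars 1 SE), open squares HSF1-KD minus SCR and open triangles SSBP1-KD minus SCR. Values run from -2.16 for Gpm6a to 1.77 for Serpinb9b, and squares lie far from 0 for Lipg (1.42) while triangles lie far from 0 for Gpm6a (-2.76).

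**Figure D4:**
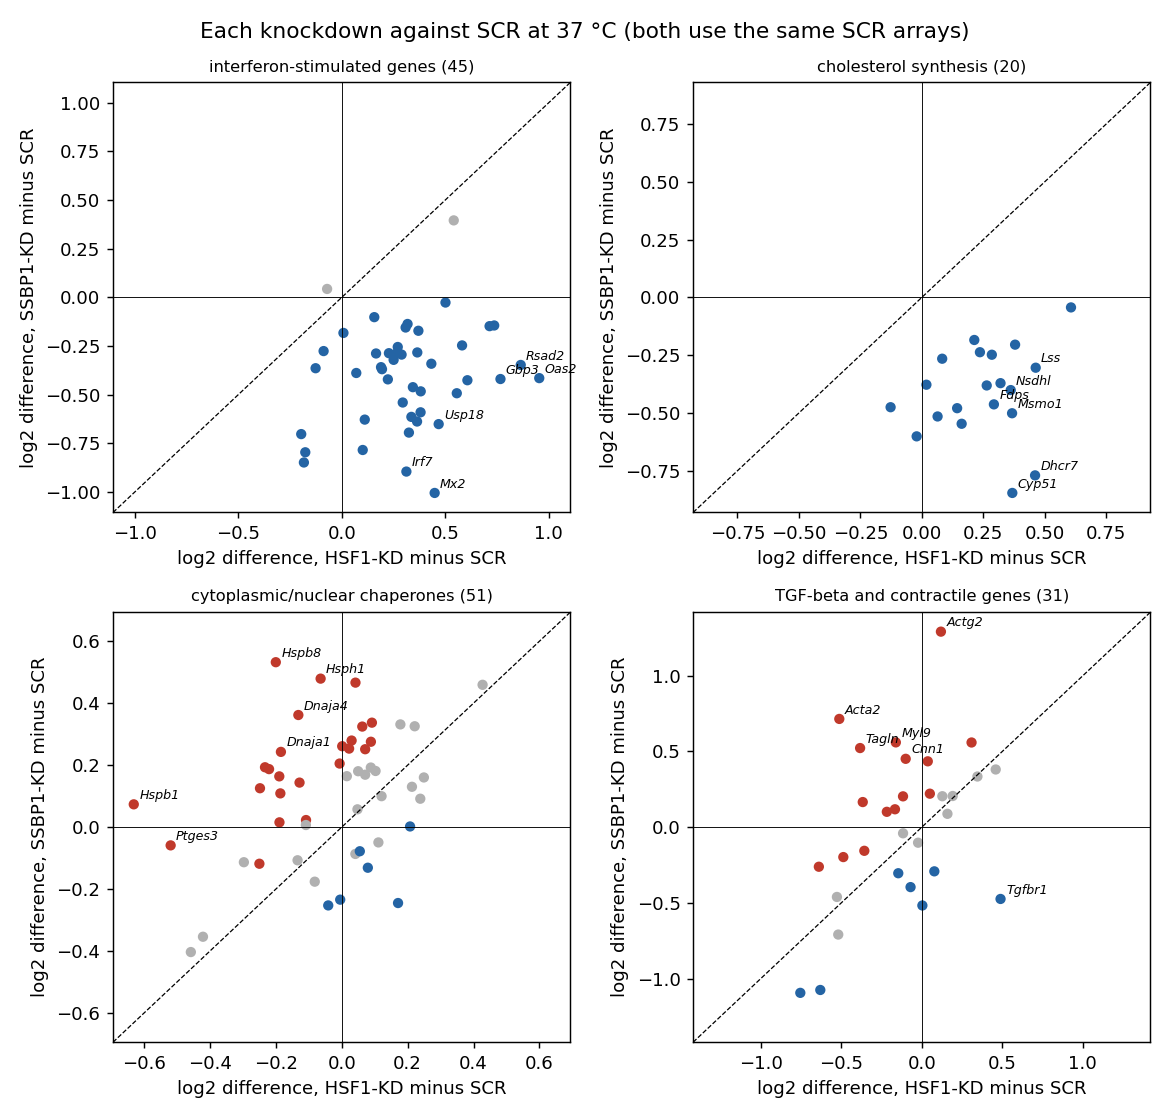
For 4 lists, the log2 difference of HSF1-KD from SCR on the x axis and of SSBP1-KD from SCR on the y axis, 1 point per gene at 37 °C, with blue and red points lower and higher in SSBP1-KD than in HSF1-KD, grey points not past the test, and a dashed line of equality. Both axes use the same SCR arrays. Interferon-stimulated genes lie mostly below 0 in SSBP1-KD (median -0.36) and above 0 in HSF1-KD (median 0.31).

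The same contrast was read in the heat-shocked arrays. Its differences come from other arrays than those of the unstressed comparison, but both tests share the estimate of the spread over all 18 arrays, so that the 2 sets of calls are not independent. In HS, 2313 genes (11.6%) were higher and 2805 (14.1%) lower in SSBP1-KD than in HSF1-KD. Of the 2563 genes higher without stress, 1696 (66.2%) were higher in HS and 6 were lower, and of the 3305 lower genes, 2194 (66.4%) were lower in HS and 14 were higher. Past a fold of 1.5 the shares were 156 of 160 (97.5%) and 402 of 413 (97.3%). Across the 5868 genes called without stress the differences of both temperatures had a Pearson r of 0.916 and a Spearman rho of 0.902, given as a description, since genes are not independent replicates. Of the interferon-stimulated genes 40 of 45 and of the cholesterol genes 20 of 20 were lower in HS as well.

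A change of the difference with heat, tested as the interaction itself, was called for 58 genes upwards (0.291%) and 10 downwards (0.0502%). The counts were 23 and 4 without HSF1-KD Cont replicate 2, 22 and 4 without HSF1-KD Cont replicate 3, 20 and 5 without SSBP1-KD Cont replicate 3, and 5 downwards without SSBP1-KD Cont replicate 2. The largest upward change was that of Hspa1a, and 6 of the 51 cytoplasmic/nuclear chaperones changed upwards. Hspa1a, which overlapped without stress, was at 9.10, 9.14 and 9.16 in HSF1-KD HS and 12.11, 12.08 and 12.20 in SSBP1-KD HS, so that its difference grew by 2.86 ± 0.09 (adjusted p = 2.79e-10). The differences of Dnajb1, Hsph1, Hspb1 and Dnaja4 grew by 1.63, 1.15, 1.05 and 0.60, and that of the HSP70 co-chaperone gene Bag3 by 0.77 from -0.16 without stress. Hspe1 and Hspd1 had 0.95 and 0.67 in HS, and changes of 0.22 and 0.15 that did not pass the test (adjusted p = 0.475 and 0.444). After Hspa1a the largest upward change, 2.10, was that of the small nucleolar RNA gene Snord14e, and that of the keratin-associated protein gene Krtap4-16 was 1.33. The largest downward change was that of the immediate-early gene Egr1, from 0.22 without stress to -0.77 in HS. Its unstressed call was lost without HSF1-KD replicate 2, SSBP1-KD replicate 1 or SSBP1-KD replicate 3 (adjusted p of 0.0887 to 0.147). That call was also lost in a fit of the 6 unstressed arrays alone (adjusted p = 0.176). The AP-1 gene Jun went from 0.45 without stress to -0.09 in HS, a change of -0.55 ± 0.07 (adjusted p = 0.00365).

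**Figure D5:**
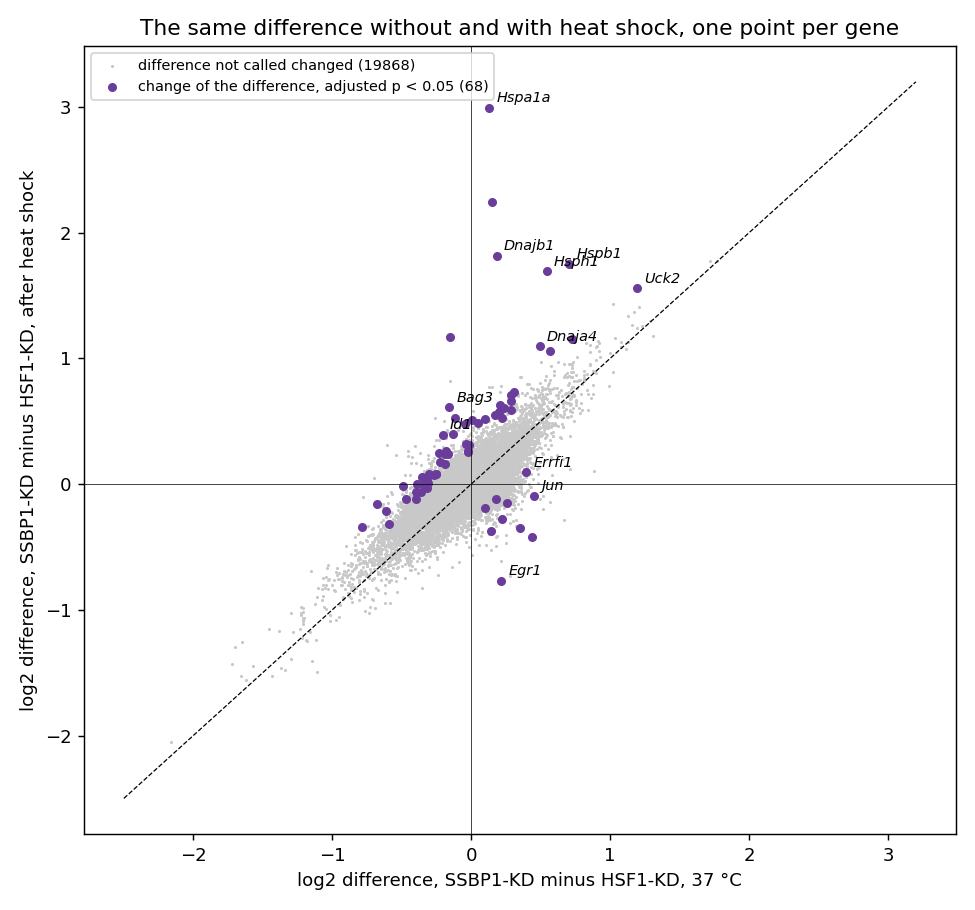
Log2 difference of SSBP1-KD minus HSF1-KD at 37 °C on the x axis and after heat shock on the y axis, 1 point per gene for 19936 genes, with 68 genes in purple whose difference changed at an adjusted p under 0.05 and a dashed line of equality. Most points follow the line, and Hspa1a stands off it at 0.13 and 2.99.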

How the data were processed

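RNA of MEF cells (200 ng per array) was hybridized to 18 arrays of the Affymetrix Mouse Gene ST type, 3 in each of 6 groups. The deposited values are log2 signals that the authors normalized by robust multichip averaging, and the submitters' processing notes name RMA and Partek 6.5. The number of arrays limits the precision. Of 35557 probe sets 21789 carried 1 gene symbol, 1621 several and 12147 none, and each of 19936 symbols was read from its probe set of highest mean.

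A single limma model (version 3.58.1, R 4.3.3) covered all 18 arrays and gave each group its mean, which left 12 residual degrees of freedom, with empirical Bayes moderation and Benjamini-Hochberg adjustment over all probe sets. Calls use an adjusted p under 0.05. The fit was tested on simulated data. Named genes were the 20 with the largest change in each direction, up to 10 called genes per list and genes the study discusses. The 20 were taken among called genes whose groups did not overlap, with predicted symbols and clone names skipped. Members of lists that a comparison needs, called or not (Bag3, Tfam, Hspa1a, Dnajb1, Cnn2, Lmcd1, Vcl, Itgb1), and Egr1, Snord14e and Krtap4-16 were also named after their values were seen. The comparison, the members and the 40 gene lists and 8 marker lists were chosen with earlier results of these data known. Promoters, 250 bases before to 50 after each start, came from RefSeq (GRCm38.p6), and positions count from 0 at the start. Figures used Python 3.11.15 and matplotlib 3.10.9.

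Alternatives were another scaling, filter, set of arrays, prior, array weights, test, probe set or threshold, a replicate block and leaving out each compared array.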

Additional observations from a re-analysis of the deposited data

Results flagged for a closer look

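The difference between SSBP1-KD and HSF1-KD changed with heat shock, by a test of the change itself, upwards for 58 genes and downwards for 10. Among the genes named here it grew for Hspa1a by 2.86, Snord14e by 2.10, Dnajb1 by 1.63, Krtap4-16 by 1.33, Hsph1 by 1.15, Hspb1 by 1.05, Bag3 by 0.77, Dnaja4 by 0.60, Uck2 by 0.36 and Vcl, the focal adhesion protein vinculin, by 0.30, all on the log2 scale. For Jun the change was -0.55 and for Egr1 -0.99.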

How the results depend on the processing

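Of 154 called genes named here, 139 kept their direction and their call under every alternative run for them, and 0 of 160 turned direction. Among calls lost by the methods' t-test with Benjamini-Hochberg adjustment were Dnajb9 (adjusted p = 0.0862), Ogn (0.0783), Psmd5 (0.0705), Polrmt (0.0691) and Mcl1 (0.0512). The second brightest probe set of Dnaja1 gave 0.31 with an adjusted p of 0.0605 by limma. The median over all genes moved by 0.03 or less on the log2 scale. Genes higher and lower numbered 1145 and 1855 in a fit of the 6 arrays alone. They numbered 1177 and 1794 by the methods' t-test with Benjamini-Hochberg adjustment, which also used only these 6 arrays. Probe sets counted in place of symbols gave 3878 higher. Both lower counts rest on fewer arrays, and the last on more features. Mean absolute residuals were 0.0844 to 0.152 on the 6 compared arrays and 0.07 to 0.0881 on the other arrays. The main fit shares 1 spread over all 18 arrays, so its SE and p-values draw on the other groups too. What the number of arrays, their spread and the change of test each add was not tested. At the study's thresholds the counts were 387 and 784 for probe sets, 1492 and 2239 at 1.2-fold and 18 and 55 at 2-fold. Genes called in the same direction in HS numbered 156 and 402 when a fold above 1.5 was also asked. The count of genes whose difference changed with heat was the least stable: 88 up and 6 down after median centring, 319 and 80 when only probe sets brighter than the median were tested, 137 and 29 among named probe sets, 222 and 65 with a trended robust prior, 221 and 111 with array weights, and 16 down for probe sets. Leaving out 1 of the 6 compared unstressed arrays gave 20 to 52 up and 4 to 15 down there. Counts without stress were 2004 to 2529 higher and 2836 to 3096 lower, and 162 to 200 and 396 to 470 at the study's thresholds. Genes called in both numbered 1451 to 1748 and 1986 to 2117. No HS array was left out. The HS counts, 2272 to 2489 and 2742 to 3035, therefore moved only through the shared estimate of the spread.

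With the replicate block the counts were 2469 and 3186 without stress, and 25 up and 5 down for the change with heat. Replicate numbers were not shown to pair samples: deviations of same-numbered arrays of the 2 groups correlated at -0.103, -0.113 and 0.171, and 6 of 18 arrays were closest to one of their own number.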
